A study of Mus musculus with 10 samples.

Results

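The genes described here are the secreted Wnt ligands, their receptors and the proteins that tune both, measured by RNA-seq in whole lung tissue of wild-type mice. Members were taken by gene name from the deposited count table, as all rows named as a Wnt, Frizzled (Fzd), Dkk, Sfrp or R-spondin (Rspo) family gene together with Wif1, Axin2, Lgr4, Lgr5, Lgr6, Lrp5, Lrp6, Frzb, Notum, Rnf43 and Znrf3. This gave 52 of 54532 rows, of which 19 are ligands, 10 Frizzled receptors, 2 co-receptors, 4 R-spondins, 3 R-spondin receptors, 2 ubiquitin ligases and 11 secreted inhibitors, and the remaining 1 is the intracellular feedback gene Axin2. All 52 had at least 1 read, and 40 passed the filter on low counts and were tested.

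The 4 LPS+TSLP libraries came from lungs of WT mice that received recombinant TSLP, a cytokine released by barrier epithelia, before LPS, the endotoxin of gram-negative bacteria. The 3 LPS libraries came from WT lungs given LPS without TSLP, and the 3 Vehicle libraries from WT lungs labelled Vehicle. The labels name no transgene or deletion in any group. Strain, age, sex, doses, times and whether each library was a separate mouse are not given in the sources used here, so p-values measure the spread between these samples, which may in part be technical.

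Wnt proteins are lipid-modified secreted ligands that bind Frizzled receptors together with the co-receptors Lrp5 or Lrp6. In the canonical branch this stops the destruction of beta-catenin, which then activates genes with TCF/LEF factors, Axin2 among them, while other branches act on cell polarity and calcium without beta-catenin. In the lung, fibroblasts and other mesenchymal cells are a known source of Wnt ligands, and alveolar and airway epithelial cells are among those that respond.

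Library totals were between 16175172 and 18374461 counts. Mitochondrial transcripts took 13.1% of counts in LPS+TSLP replicate 1, 2% to 6.5% in the other 3 LPS+TSLP libraries, 1.2% to 2.58% in the LPS libraries and 1.11% to 1.27% in the Vehicle libraries. The lung label was checked against cell type markers: alveolar type 2 markers summed to 3700 to 21800 counts scaled to library size (CPM) in LPS+TSLP lungs, 5550 to 13200 CPM in LPS lungs and 14800 to 23800 CPM in Vehicle lungs, with LPS+TSLP replicate 1 at the lowest value. LPS+TSLP replicate 1 also held 405 CPM of skeletal and cardiac muscle markers and Vehicle replicate 2 held 414 CPM, against 2.94 to 153 CPM elsewhere. CPM values below are on library sizes scaled by TMM.

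The 250 bases before the start site are shown for the genes on which the results turn, the secreted inhibitor Sfrp2, the lung ligand Wnt2 and the feedback gene Axin2, and for the receptor Fzd7, whose call held in every fit that left out 1 library in both comparisons with Vehicle. Sequences are from RefSeq on GRCm38.p6, 5′ to 3′ on the strand of the gene, and capitals mark a TCF/LEF core word. Sfrp2 lies at chr3:83766071-83766320 on the plus strand, Wnt2 at chr6:18030446-18030695 on the minus strand, Axin2 at chr11:108920099-108920348 on the plus strand and Fzd7 at chr1:59481897-59482146 on the plus strand.
Sfrp2: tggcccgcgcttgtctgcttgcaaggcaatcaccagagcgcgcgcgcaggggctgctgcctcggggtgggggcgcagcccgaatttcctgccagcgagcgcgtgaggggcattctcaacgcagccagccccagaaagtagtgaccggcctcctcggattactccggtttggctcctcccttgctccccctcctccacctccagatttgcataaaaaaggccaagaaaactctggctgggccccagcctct
Wnt2: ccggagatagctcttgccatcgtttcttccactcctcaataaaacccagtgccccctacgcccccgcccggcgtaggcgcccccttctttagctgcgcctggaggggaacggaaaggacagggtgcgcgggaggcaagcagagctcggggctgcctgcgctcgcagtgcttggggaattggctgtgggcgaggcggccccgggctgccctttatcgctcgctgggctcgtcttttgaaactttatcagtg
Axin2: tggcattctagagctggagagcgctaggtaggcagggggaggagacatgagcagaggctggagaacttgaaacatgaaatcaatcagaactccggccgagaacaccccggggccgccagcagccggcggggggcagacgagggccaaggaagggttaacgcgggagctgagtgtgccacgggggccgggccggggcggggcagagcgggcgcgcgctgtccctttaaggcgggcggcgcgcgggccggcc
Fzd7: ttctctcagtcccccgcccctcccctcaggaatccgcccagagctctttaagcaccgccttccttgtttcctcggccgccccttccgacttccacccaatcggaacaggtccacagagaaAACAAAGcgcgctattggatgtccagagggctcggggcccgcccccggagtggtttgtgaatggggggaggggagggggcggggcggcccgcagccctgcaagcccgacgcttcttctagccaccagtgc
The 4 core words searched, on both strands, were CTTTGAA, which ends in 2 A bases, then CTTTGAT, in addition the variant CTTTGTA, and the last of them, CTTTGTT. Of these 4 genes, Fzd7 had 1 word, the last of these read on the opposite strand, and Sfrp2, Wnt2 and Axin2 had 0 in this window. RefSeq windows were matched for 33 of the 52 members. At least 1 word was present in 4 of 37 member windows (10.8%), since some members have several starts, in 1 of the 10 matched members that fell after LPS, and in 14.8% of all 32851 windows. A match is a description of these letters only.

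After LPS the Wnt genes were lower or not called, and none was higher at the threshold. With edgeR's quasi-likelihood test and a Benjamini-Hochberg adjusted p under 0.05 over all genes tested, 17 of 40 members fell in LPS against Vehicle lungs and 0 rose, where 10.7% of all genes tested fell and 14.2% rose. The members that fell were the ligands Wnt2, Wnt3a, Wnt5a and Wnt10b, the receptors Fzd1, Fzd2, Fzd6, Fzd7 and Fzd8, the co-receptor Lrp5, the R-spondin Rspo1, its receptor Lgr6, the ubiquitin ligase Rnf43, the inhibitors Sfrp2, Sfrp4 and Dkk3, and Axin2. The median log2 fold change over the 40 members was −1.19, against 0.01 over all genes. Every LPS library was below every Vehicle library for 26 members (25.1% of all genes), and 2 members, Wnt9b and Rspo3, had every LPS library above (24.7% of all genes). A member can pass the filter through the Vehicle libraries alone, so these counts describe the tested members only.

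In LPS+TSLP against LPS lungs, 0 of 40 members passed in either direction, where 0.0% of all 17139 genes passed in each direction. At an unadjusted p under 0.05 edgeR gave 6 members, Wnt4, Fzd6, Fzd8, Lgr6, Sfrp2 and Axin2, against 8.1% of all genes, and DESeq2's Wald test and limma-voom also called 0 members. Over all genes the Wald test called 22 higher and 12 lower, and limma-voom 0. The log2 fold change was positive for 28 of 40 members, with a median of 0.37 against 0.02 over all genes. Every LPS+TSLP library was above every LPS library for 3 members, Fzd6, Fzd8 and Sfrp2 (3.88% of all genes), and 0 members had every library below (3.54%). In LPS+TSLP against Vehicle lungs 9 of 40 members fell and 0 rose, where 5.35% of all genes fell and 8.82% rose, and the median log2 fold change was −0.73 against 0.03. Both comparisons with Vehicle use the same 3 Vehicle libraries, so their values are given side by side below. There, "after LPS" stands for LPS against Vehicle and "with TSLP" for LPS+TSLP against Vehicle. A fall with TSLP is therefore a fall after both agents, and no group received TSLP without LPS. The test of LPS+TSLP against LPS is the one that bears on a difference between them.

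**Figure D1:**
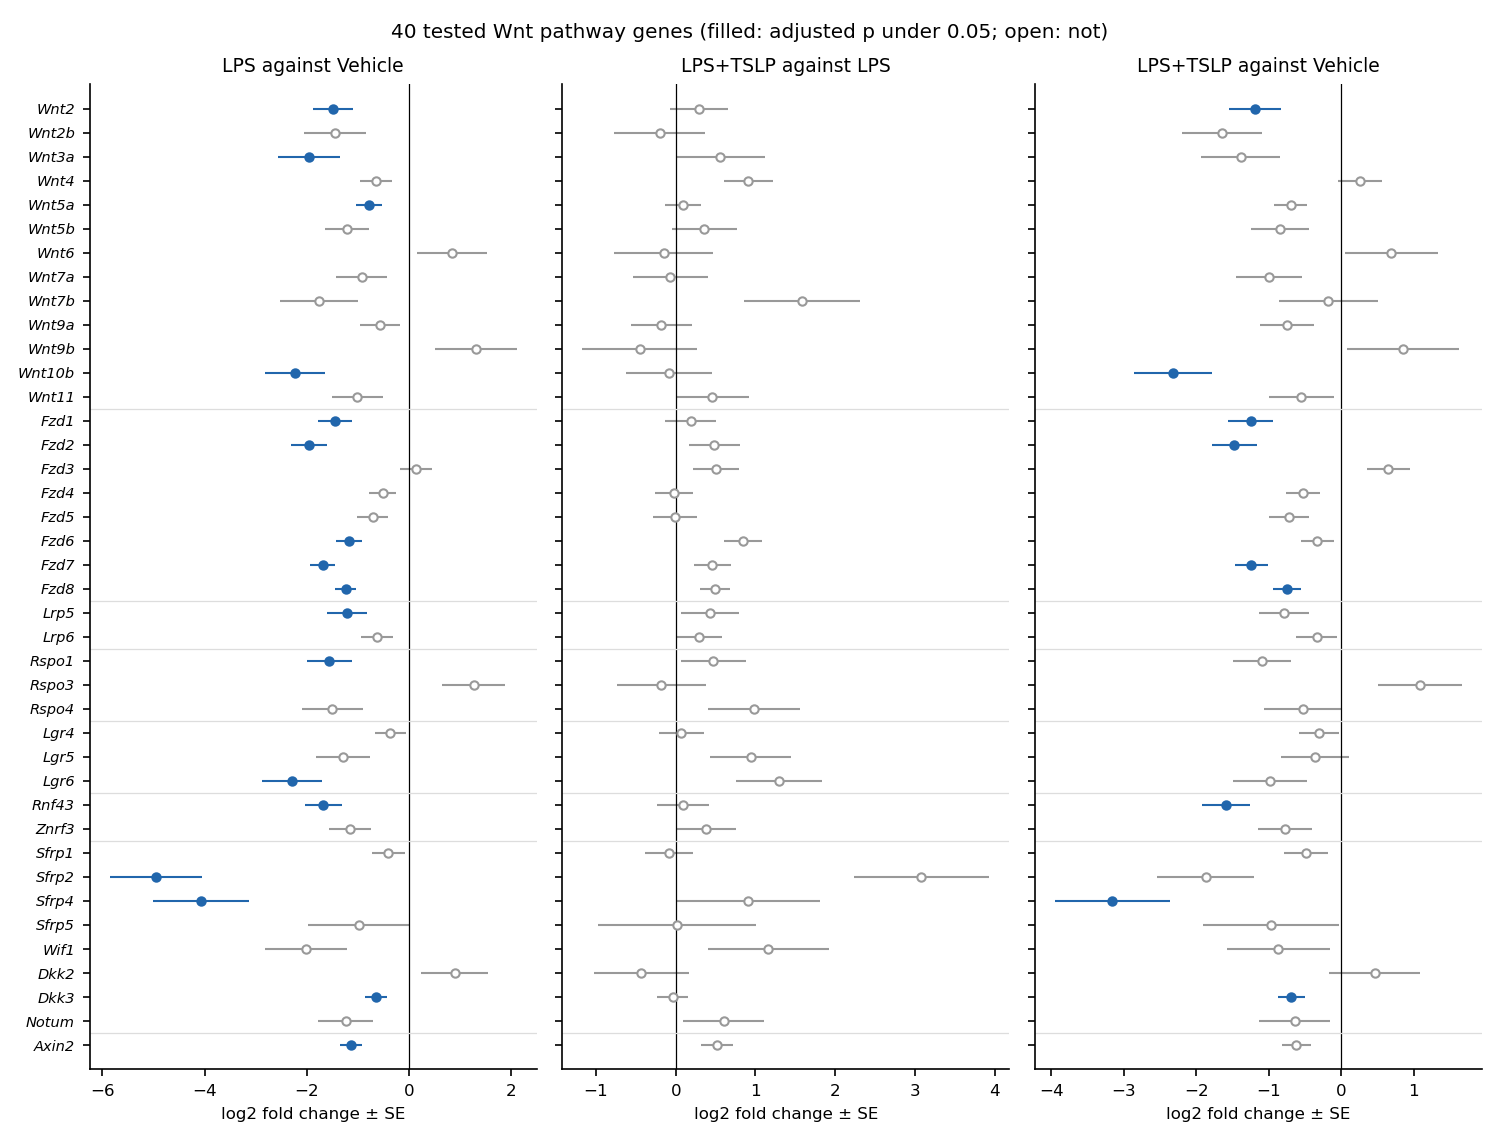
Log2 fold change with its standard error for the 40 tested Wnt genes, from ligands at the top to Axin2 at the bottom, in LPS against Vehicle (left), LPS+TSLP against LPS (middle) and LPS+TSLP against Vehicle lungs (right), each panel with its own axis. Filled points passed an adjusted p of 0.05: 17, 0 and 9 genes, all to the left of 0.

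**Figure D2:**
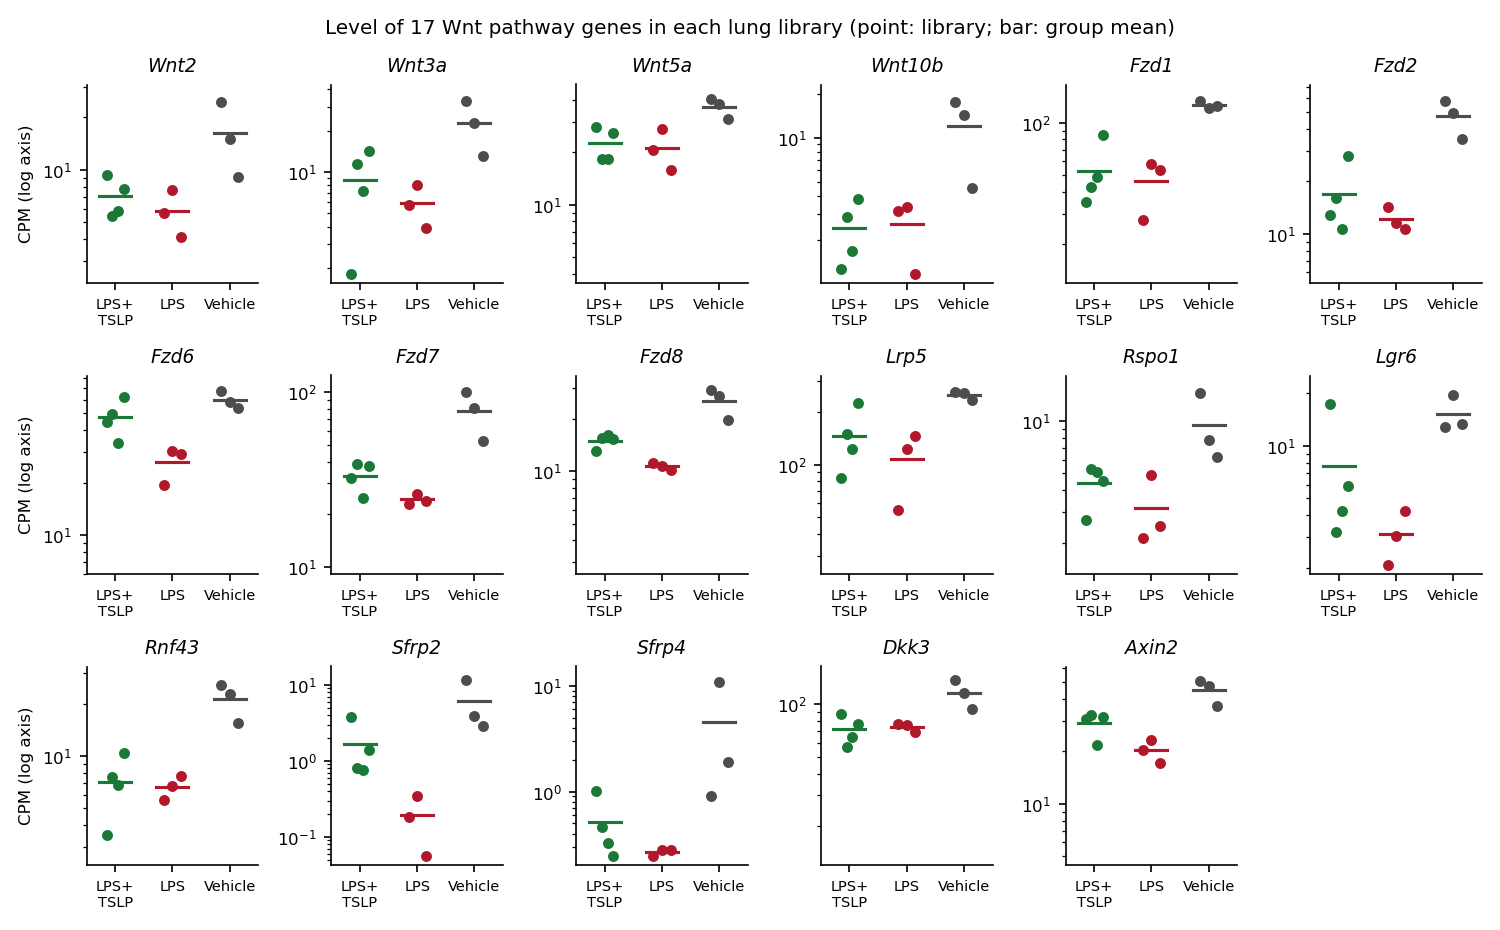
CPM on a log axis for each library of the 17 Wnt genes called in at least 1 comparison, with LPS+TSLP, LPS and Vehicle lungs from left to right and a bar at each group mean. All LPS points lie below all Vehicle points in each of the 17 panels.

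Among the 13 tested ligands 4 fell after LPS. Wnt2, a mesenchymal ligand needed for lung formation in the mouse embryo, had 9.4, 5.47, 5.78 and 7.81 CPM in LPS+TSLP lungs, 5.67, 7.68 and 4.11 CPM in LPS lungs, and 24.6, 15.1 and 9.07 CPM in Vehicle lungs. The lowest Vehicle library was above all LPS libraries but below the highest LPS+TSLP library. Wnt2 fell by 1.48 on the log2 scale in LPS against Vehicle (SE 0.39, adjusted p = 0.02) and by 1.19 in LPS+TSLP against Vehicle (SE 0.36, adjusted p = 0.046), and LPS+TSLP against LPS was at 0.29 (SE 0.36, adjusted p = 0.87). Leaving out Vehicle replicate 1 or 2, or replicate 1 or 3 of LPS, ended the call after LPS (log2 −1.54 to −1.05, adjusted p 0.054 to 0.11), and Vehicle replicate 1 or 2, replicate 1 or 2 of LPS, or replicate 2, 3 or 4 of LPS+TSLP each decided the call with TSLP (log2 −1.25 to −0.76, adjusted p 0.055 to 0.24).

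Wnt3a, a canonical ligand, had 1.79, 11.5, 7.3 and 14.3 CPM in LPS+TSLP lungs, 5.79, 8.02 and 3.89 CPM in LPS lungs, and 32.7, 22.9 and 13.1 CPM in Vehicle lungs. LPS+TSLP replicate 1 was the lowest of all 10 libraries, and the highest LPS+TSLP library overlapped the Vehicle range. It fell by 1.96 in LPS against Vehicle (SE 0.61, adjusted p = 0.037) and was at −1.39 with TSLP (SE 0.54, adjusted p = 0.1). The call was lost without any 1 of Vehicle replicates 1 and 2 and the 3 LPS replicates (log2 −2.24 to −1.6, adjusted p 0.058 to 0.13). Wnt10b, a canonical ligand known to restrain fat cell formation, had 1.28, 2.88, 1.69 and 3.84 CPM in LPS+TSLP lungs, 3.17, 3.39 and 1.17 CPM in LPS lungs, and 17.5, 14.2 and 4.53 CPM in Vehicle lungs. Here all Vehicle libraries were above all others. Wnt10b fell by 2.23 in LPS against Vehicle (SE 0.59, adjusted p = 0.02) and by 2.32 in LPS+TSLP against Vehicle (SE 0.54, adjusted p = 0.019). Without either of Vehicle replicates 1 and 2, or without LPS replicate 3, the LPS call was lost (log2 −2.1 to −1.85, adjusted p 0.053 to 0.083), and without Vehicle replicate 1 or 2 or LPS+TSLP replicate 3 so was the call with TSLP (log2 −2.21 to −1.96, adjusted p 0.06 to 0.09).

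Wnt5a, the best known ligand of the branches without beta-catenin, had 28, 18.2, 18.3 and 25.8 CPM in LPS+TSLP lungs, 20.5, 27 and 15.8 CPM in LPS lungs, and 40.6, 37.8 and 31.2 CPM in Vehicle lungs. All 7 LPS and LPS+TSLP libraries lay below all 3 Vehicle libraries. The change was −0.79 in LPS against Vehicle (SE 0.25, adjusted p = 0.04) and −0.7 in LPS+TSLP against Vehicle (SE 0.23, adjusted p = 0.065; −0.83 and called without LPS+TSLP replicate 1). The LPS call ended on leaving out Vehicle replicate 1 or 2, replicate 1 or 3 of LPS, or replicate 4 of LPS+TSLP (log2 −0.77 to −0.59, adjusted p 0.05 to 0.14). Wnt4, which signals through both branches depending on the tissue, had 23, 25.6, 19 and 11.7 CPM in LPS+TSLP lungs, 13.4, 8.98 and 9.16 CPM in LPS lungs, and 21.7, 15.4 and 12.3 CPM in Vehicle lungs. LPS+TSLP replicates 1, 2 and 3 were above all LPS libraries, and replicate 4 was not. Wnt4 was at 0.91 in LPS+TSLP against LPS (SE 0.31, unadjusted p = 0.0121, adjusted p = 0.59), and neither comparison with Vehicle was called.

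The other 8 tested ligands were not called in any of the 3 comparisons. Wnt2b, Wnt5b, Wnt7a, Wnt7b, Wnt9a and Wnt11 had log2 fold changes between −1.76 (Wnt7b) and −0.57 (Wnt9a) in LPS against Vehicle, and Wnt6 and Wnt9b were at 0.84 and 1.3. Wnt7b, an epithelial ligand of the developing mouse lung, had 19.4, 3.22, 3.05 and 3.66 CPM in LPS+TSLP lungs, 2.01, 1.41 and 3.89 CPM in LPS lungs, and 7.3, 13.3 and 4.26 CPM in Vehicle lungs, so that LPS+TSLP replicate 1 alone exceeded all other libraries. Wnt9b, which had 42, 45 and 19 reads over the LPS+TSLP, LPS and Vehicle libraries, did not overlap between LPS (0.609 to 1.17 CPM) and Vehicle lungs (0.0562 to 0.587 CPM), at an adjusted p of 0.25. Without LPS+TSLP replicate 1 in the fit, Wnt2b, Wnt5b, Wnt7a, Wnt7b and Wnt11 were called lower in LPS against Vehicle, along with Fzd5, Znrf3 and Wif1, and 25 of 40 members were called lower in all. That library is in neither group compared. The filter and the spread were set anew over 16997 genes, so calls of any gene can change. The share of all genes called lower in that fit is not given here, so this count is not particular to the Wnt genes. In LPS+TSLP against Vehicle, Wnt11 was called without LPS+TSLP replicate 1, and Wnt7a, Wnt9a and Fzd5 without LPS+TSLP replicate 4.

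Of the 8 tested Frizzled receptors 5 fell after LPS, and all 5 calls held whichever of the 10 libraries was left out. Fzd7, a receptor linked to stem and progenitor cells in several tissues, had 32.1, 38.6, 24.9 and 37.7 CPM in LPS+TSLP lungs, 23, 26.2 and 23.7 CPM in LPS lungs, and 101, 81.9 and 52.9 CPM in Vehicle lungs. The 3 LPS libraries lay close together, and all Vehicle libraries were higher than all others. It fell by 1.69 in LPS against Vehicle (SE 0.25, adjusted p = 0.0026) and by 1.24 in LPS+TSLP against Vehicle (SE 0.23, adjusted p = 0.0082), the smallest adjusted p of any member in each, and both calls held in all 10 fits. Fzd2 had 12.9, 16.1, 10.7 and 28.1 CPM in LPS+TSLP lungs, 14.3, 11.6 and 10.6 CPM in LPS lungs, and 57.5, 49.1 and 35.2 CPM in Vehicle lungs, again without overlap with Vehicle. It fell by 1.96 after LPS (SE 0.35, adjusted p = 0.0046) and by 1.48 with TSLP (SE 0.31, adjusted p = 0.013), the second call being lost without Vehicle replicate 1 or 2 (log2 −1.48 to −1.33, adjusted p 0.051 to 0.062).

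Fzd1 had 35, 42.8, 48.6 and 84.8 CPM in LPS+TSLP lungs, 27.5, 57.7 and 53.5 CPM in LPS lungs, and 133, 122 and 124 CPM in Vehicle lungs. Its Vehicle libraries were tight and above all 7 others. Fzd1 fell by 1.45 after LPS (SE 0.34, adjusted p = 0.013) and by 1.25 with TSLP (SE 0.31, adjusted p = 0.025). The call with TSLP was lost without Vehicle replicate 1 or 2 or LPS+TSLP replicate 2 or 3 (log2 −1.3 to −1.16, adjusted p 0.068 to 0.08). Fzd8 had 13.1, 15.5, 16.1 and 15.2 CPM in LPS+TSLP lungs, 11.2, 10.7 and 10.2 CPM in LPS lungs, and 29.2, 27.1 and 19.7 CPM in Vehicle lungs. The 3 groups did not overlap, with LPS+TSLP between LPS and Vehicle. It fell by 1.24 after LPS (SE 0.21, adjusted p = 0.0037) and by 0.75 with TSLP (SE 0.19, adjusted p = 0.025), and LPS+TSLP against LPS was at 0.49 (SE 0.19, unadjusted p = 0.0276, adjusted p = 0.59). The call with TSLP was lost without Vehicle replicate 1 or 2 or LPS+TSLP replicate 2 or 3 (log2 −0.79 to −0.64, adjusted p 0.06 to 0.13).

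Fzd6, a receptor best known for planar polarity of skin and hair in the mouse, had 44.5, 49.8, 33.6 and 61.8 CPM in LPS+TSLP lungs, 19.3, 30.6 and 29.4 CPM in LPS lungs, and 67.4, 58.2 and 53.5 CPM in Vehicle lungs. All LPS libraries were below all others, and the LPS+TSLP range reached into the Vehicle range. It fell by 1.18 in LPS against Vehicle (SE 0.25, adjusted p = 0.0094), was at −0.33 in LPS+TSLP against Vehicle (SE 0.23, adjusted p = 0.34), and at 0.84 in LPS+TSLP against LPS (SE 0.24, unadjusted p = 0.00436, adjusted p = 0.59). Fzd4, a receptor of endothelial cells, had 127, 119, 186 and 200 CPM in LPS+TSLP lungs, 115, 172 and 193 CPM in LPS lungs, and 246, 214 and 225 CPM in Vehicle lungs. No Vehicle library overlapped the others, but at −0.52 after LPS (SE 0.26, adjusted p = 0.16) and −0.53 with TSLP (SE 0.24, adjusted p = 0.15) Fzd4 was not called. Fzd5 was at −0.71 after LPS (adjusted p = 0.1), and called without LPS+TSLP replicate 1 or 4. Fzd3, at 6.44 ± 0.881 CPM in LPS lungs and 5.84 ± 0.229 CPM in Vehicle lungs (SD, n = 3 each), was at 0.14, and with the trend on GC content removed (below) at −0.8, uncalled in both.

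Lrp5, a co-receptor for canonical ligands, had 83.5, 149, 123 and 226 CPM in LPS+TSLP lungs, 55, 123 and 146 CPM in LPS lungs, and 261, 257 and 236 CPM in Vehicle lungs. The Vehicle libraries were above all others, while values within LPS and LPS+TSLP spread widely. Lrp5 fell by 1.22 after LPS (SE 0.39, adjusted p = 0.04) and was at −0.79 with TSLP (SE 0.35, adjusted p = 0.15), and at −1.05 and called without LPS+TSLP replicate 4. The LPS call was lost without any 1 of the 3 Vehicle replicates, LPS replicates 1 and 2 and LPS+TSLP replicates 2 and 3 (log2 −1.32 to −0.91, adjusted p 0.053 to 0.091). Lrp6, the paralog, had 75.8, 94.4, 73.5 and 157 CPM in LPS+TSLP lungs, 57.4, 83.6 and 104 CPM in LPS lungs, and 134, 111 and 134 CPM in Vehicle lungs. Its change after LPS was −0.63 (SE 0.31, adjusted p = 0.15) and with TSLP −0.34 (SE 0.28, adjusted p = 0.44).

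R-spondins bind Lgr4, Lgr5 or Lgr6 and draw away the ubiquitin ligases Rnf43 and Znrf3, which otherwise clear Frizzled receptors from the cell surface. At each of these steps 1 gene fell after LPS. Rspo1 had 2.69, 5.29, 5.12 and 4.52 CPM in LPS+TSLP lungs, 2.13, 4.91 and 2.5 CPM in LPS lungs, and 14.4, 7.74 and 6.17 CPM in Vehicle lungs, with no overlap with Vehicle. It fell by 1.56 after LPS (SE 0.44, adjusted p = 0.026) and was at −1.1 with TSLP (SE 0.4, adjusted p = 0.084). Vehicle replicates 1 and 2 and LPS replicates 1 and 3 each ended the call when left out (log2 −1.7 to −1.12, adjusted p 0.051 to 0.12). Lgr6, an R-spondin receptor found on airway smooth muscle and skin progenitors in the mouse, had 17.3, 3.22, 4.25 and 5.92 CPM in LPS+TSLP lungs, 2.07, 3.05 and 4.22 CPM in LPS lungs, and 12.9, 19.7 and 13.3 CPM in Vehicle lungs. LPS+TSLP replicate 1 was inside the Vehicle range and the other 3 were far below it. Lgr6 fell by 2.29 after LPS (SE 0.58, adjusted p = 0.017) and was at −0.99 with TSLP (SE 0.51, adjusted p = 0.2), a change that was called at −1.79 without LPS+TSLP replicate 1. The LPS call was lost without Vehicle replicate 2 or LPS replicate 1 or 2 (log2 −2.27 to −2.07, adjusted p 0.051 to 0.076).

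Rnf43, itself a target of canonical signalling, had 3.52, 7.6, 6.81 and 10.4 CPM in LPS+TSLP lungs, 5.61, 6.72 and 7.66 CPM in LPS lungs, and 25.7, 22.8 and 15.5 CPM in Vehicle lungs. Vehicle lungs were above both other groups with no overlap. It fell by 1.68 after LPS (SE 0.36, adjusted p = 0.0095), in all 10 fits, and by 1.59 with TSLP (SE 0.33, adjusted p = 0.013), where the call was lost without Vehicle replicate 1 or 2 (log2 −1.57 to −1.45, adjusted p 0.05 to 0.058). Its paralog Znrf3 was at −1.16 after LPS (SE 0.41, adjusted p = 0.056), with no overlap between 7.43 to 12.3 CPM in LPS lungs and 15.8 to 31.5 CPM in Vehicle lungs, and it was called without Vehicle replicate 3. Rspo3, a vascular R-spondin, had 3.71, 2.7, 1.85 and 2.07 CPM in LPS+TSLP lungs, 3.29, 2.32 and 3.17 CPM in LPS lungs, and 0.225, 1.17 and 2.24 CPM in Vehicle lungs. All LPS libraries were above all Vehicle libraries. At 1.26 after LPS (SE 0.61, adjusted p = 0.15) it was not called, though without Vehicle replicate 3 it was, at 2.06. Lgr4, Lgr5 and Rspo4 were at −0.37, −1.3 and −1.5 after LPS, none called.

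Of the 8 tested secreted inhibitors 3 fell after LPS, and the members with the largest log2 changes were among them. Sfrp2, a fibroblast product that binds Wnt ligands outside the cell, had 3.77, 0.806, 0.763 and 1.4 CPM in LPS+TSLP lungs, 0.183, 0.339 and 0.0555 CPM in LPS lungs, and 11.6, 3.9 and 2.89 CPM in Vehicle lungs. The LPS libraries held 10 Sfrp2 reads between them, the LPS+TSLP libraries 110 and the Vehicle libraries 333. All LPS libraries were below all others, and LPS+TSLP replicate 1 reached the Vehicle range. Sfrp2 fell by 4.95 on the log2 scale in LPS against Vehicle (SE 0.9, adjusted p = 0.0051). This call held in all 10 fits, with −4.09 without Vehicle replicate 1 and −5.63 without LPS replicate 2. Sfrp2 was at 3.08 in LPS+TSLP against LPS (SE 0.85, unadjusted p = 0.00383, adjusted p = 0.59), and at −1.87 in LPS+TSLP against Vehicle (SE 0.67, adjusted p = 0.081). Without LPS+TSLP replicate 1, it was called against Vehicle at −2.64.

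Sfrp4, a related inhibitor, had 1.02, 0.46, 0.327 and 0.244 CPM in LPS+TSLP lungs, 0.244, 0.282 and 0.278 CPM in LPS lungs, and 0.899, 11 and 1.91 CPM in Vehicle lungs. Vehicle replicate 2 stood far above every other library. Sfrp4 fell by 4.07 in LPS against Vehicle (SE 0.94, adjusted p = 0.012) and by 3.16 in LPS+TSLP against Vehicle (SE 0.79, adjusted p = 0.025). Without Vehicle replicate 2 the values were −2.37 (adjusted p = 0.068) and −1.45 (adjusted p = 0.23), so the size and both calls rest on that library. With limma-voom Sfrp4 was at −3.21 (adjusted p = 0.064) and −2.55 (adjusted p = 0.089), and with the replicate block the value with TSLP was −2.44 (adjusted p = 0.092), none of them called. The call with TSLP was also lost without LPS+TSLP replicate 2 or 3 (log2 as low as −3.11, adjusted p as low as 0.072). Vehicle replicate 2 also held the most adipocyte marker RNA, 192 CPM summed over 5 genes, against 45.7 and 24.4 CPM in the other 2 Vehicle libraries, 3.98 to 7.55 CPM in LPS+TSLP lungs and 2.65 to 14.1 CPM in LPS lungs, and the part of this in the Sfrp4 values was not tested.

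Dkk3, a divergent member of a family that otherwise blocks Lrp5 and Lrp6, had 88, 56.7, 65.2 and 77.4 CPM in LPS+TSLP lungs, 76.6, 76 and 69.1 CPM in LPS lungs, and 137, 116 and 94.2 CPM in Vehicle lungs. Neither treated group overlapped Vehicle. Dkk3 fell by 0.65 after LPS (SE 0.21, adjusted p = 0.043) and by 0.69 with TSLP (SE 0.19, adjusted p = 0.037). The LPS call was lost without any 1 of Vehicle replicates 1 and 2, the 3 LPS replicates and LPS+TSLP replicates 3 and 4 (log2 −0.68 to −0.5, adjusted p 0.054 to 0.19), and the call with TSLP without Vehicle replicate 1 or 2, LPS replicate 2 or LPS+TSLP replicate 2 or 3 (log2 −0.7 to −0.55, adjusted p 0.056 to 0.18). Sfrp1, the most abundant Sfrp gene per length, had 42.4, 28, 39.6 and 60 CPM in LPS+TSLP lungs, 34.8, 50.3 and 49.7 CPM in LPS lungs, and 37.4, 59.2 and 82.7 CPM in Vehicle lungs. The groups overlapped, and the change was −0.41 after LPS (SE 0.32, adjusted p = 0.37). Wif1, which binds ligands directly, and Notum, which strips their lipid, were at −2.02 (adjusted p = 0.086) and −1.24 (adjusted p = 0.11) after LPS, and were called there without LPS replicate 3 (Wif1) and LPS replicate 2 (Notum). Sfrp5 and Dkk2 were at −0.98 and 0.89, not called.

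Axin2, a scaffold of the beta-catenin destruction complex whose own transcription is a common readout of canonical signalling, had 30.8, 32.4, 21.9 and 31.5 CPM in LPS+TSLP lungs, 20.5, 23.4 and 17.1 CPM in LPS lungs, and 50.6, 47.5 and 36.3 CPM in Vehicle lungs. Vehicle was above both other groups without overlap, and LPS+TSLP replicate 3 alone lay inside the LPS range. Axin2 fell by 1.14 in LPS against Vehicle (SE 0.22, adjusted p = 0.0061), in all 10 fits. It was at −0.62 in LPS+TSLP against Vehicle (SE 0.2, adjusted p = 0.059), called without Vehicle replicate 3. LPS+TSLP against LPS was at 0.52 (SE 0.2, unadjusted p = 0.0264, adjusted p = 0.59).

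The 12 members that did not pass the filter had few reads. Wnt1, Wnt3, Wnt8a and Dkk4 had at most 3 reads in any group. Wnt10a, Wnt16 and Fzd9 had at most 11. Fzd10 had 11, 6 and 24 reads over the LPS+TSLP, LPS and Vehicle libraries, Rspo2 had 15, 7 and 42, and Frzb had 13, 2 and 21. Wnt8b had 5, 13 and 0 reads and Dkk1 13, 2 and 0, so both were seen in treated lungs while the Vehicle libraries held 0. A count of 0 over these 3 libraries allows up to 3 reads, and at this depth no difference was tested.

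Per kb of exon, which allows genes to be compared, the members in Vehicle lungs reached 34.5 ± 6.4 CPM per kb for Dkk3 (SD, n = 3). Fzd4 (34 ± 2.42 CPM per kb), Fzd1 (30 ± 1.37 CPM per kb) and Lrp5 (25.8 ± 1.39 CPM per kb) came next, so Dkk3 and Fzd4 were within their spread. The next levels per kb were those of Fzd7 (17.3 CPM), Sfrp1 (13.7 CPM), Fzd2 (12.9 CPM), Fzd6 (12.4 CPM), Lrp6 (9.25 CPM) and Wnt3a (8.29 CPM). The 10 highest thus held 5 Frizzled receptors, both co-receptors, 2 inhibitors and 1 ligand. Of these 10, all but Fzd4, Sfrp1 and Lrp6 fell after LPS. Axin2 was at 8.14 CPM per kb, Wnt2 at 7.21 CPM per kb and Sfrp2 at 2.85 CPM per kb.

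**Figure D3:**
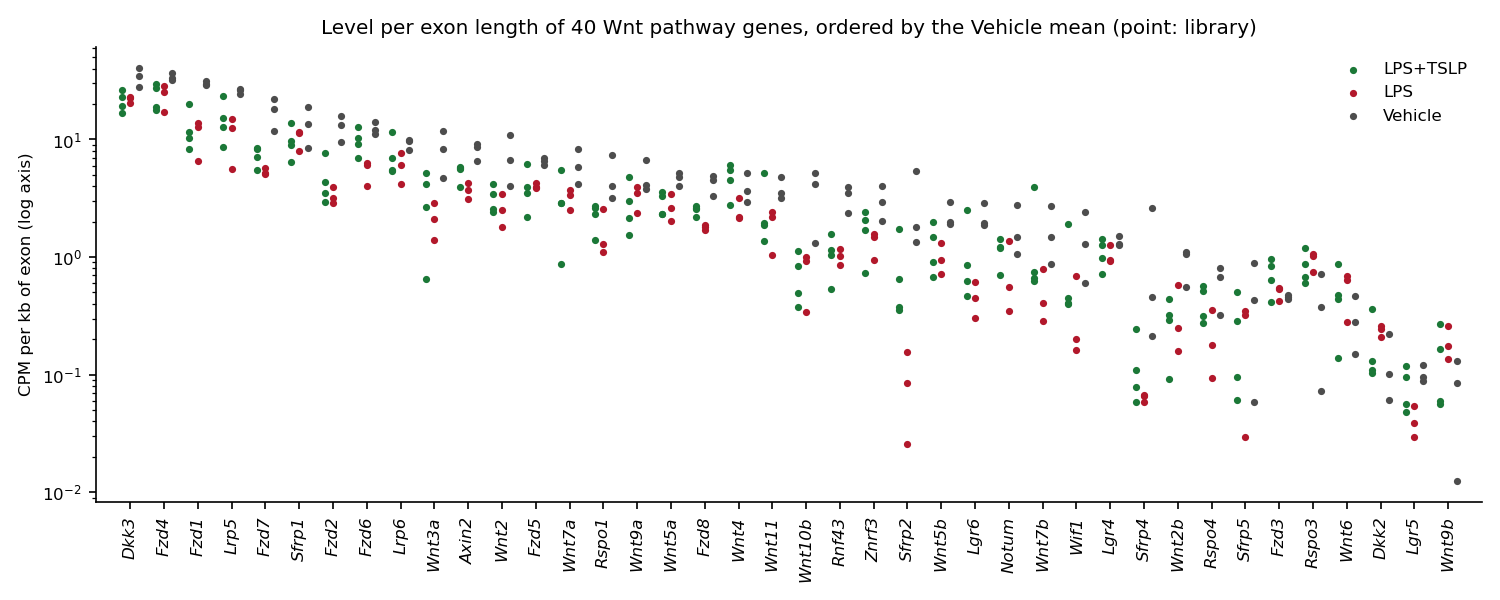
CPM per kb of exon on a log axis in each library for the 40 tested Wnt genes, with LPS+TSLP, LPS and Vehicle points from left to right for each gene and genes ordered by their Vehicle mean. Levels run from 34.5 CPM per kb for Dkk3 to 0.0757 CPM per kb for Wnt9b in Vehicle lungs, and Sfrp2 in LPS lungs lies furthest below its Vehicle points.

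Other genes of the pathway were read from lists that do not overlap the members. Over all genes tested, 10.7% fell and 14.2% rose in LPS against Vehicle. In LPS+TSLP against Vehicle 5.35% fell and 8.82% rose. Of 17 tested genes for other Wnt co-receptors and planar polarity, 8 fell in LPS against Vehicle and 0 rose (median log2 −0.72). Examples were the polarity cadherin Celsr2, at 16 ± 3.5 CPM in LPS lungs and 43.7 ± 5.46 CPM in Vehicle lungs (log2 −1.45, adjusted p = 0.0052), Celsr1 (−1.85, adjusted p = 0.011), Invs (−1.09, adjusted p = 0.0067) and Daam2 (−1.39, adjusted p = 0.01), whose calls held in all 10 fits. With TSLP 6 fell, and 0 to 9 did over the 10 fits that left out a library, with 0 without Vehicle replicate 1. Of 13 tested extracellular modulators 7 fell and 0 rose (median −1.1), among them the proteoglycan Gpc3 (−1.89, adjusted p = 0.0049), the Dkk receptor Kremen1 (−1.06, adjusted p = 0.0085), Apcdd1 (−1.37, adjusted p = 0.01) and Trabd2b (−1.17, adjusted p = 0.01, and 0.053 without Vehicle replicate 1). With TSLP 4 fell, and Gpc3 did so in all 10 fits (−1.67, adjusted p = 0.008). The other 3 were not called without Vehicle replicate 1 or 2 or LPS+TSLP replicate 2 or 3.

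Inside the cell, 7 of 26 tested genes of the destruction complex and signal transduction fell after LPS and 1 rose (median −0.41). The falls included Dact3 (−1.5, adjusted p = 0.0032), the Apc relative Apc2 (−1.61, adjusted p = 0.0079), Cxxc5 (−1.12, adjusted p = 0.011) and Dvl3 (−0.66, adjusted p = 0.018). Dvl3 and Cxxc5 were lost without Vehicle replicate 1 or 2 (adjusted p 0.052 to 0.066), and without either of these only 2 of the list were called lower. Beta-catenin itself, Ctnnb1, had 386 ± 108 CPM in LPS lungs and 844 ± 96.8 CPM in Vehicle lungs (−1.13, adjusted p = 0.018, and 0.057 to 0.06 on leaving out replicate 1 or 2 of Vehicle or of LPS). Apc, the scaffold that targets beta-catenin for destruction, was the gene that rose, with 93.5 ± 19.1 CPM in LPS lungs and 45.5 ± 10.1 CPM in Vehicle lungs (1.04, adjusted p = 0.027, and 0.057 to 0.094 on leaving out replicate 1 or 2 of Vehicle or replicate 2 or 3 of LPS). Ctnnb1 and Apc are named after their values were seen. Of 13 tested TCF/LEF factors and partners 4 fell (median −0.4), Bcl9l (−1.41, adjusted p = 0.0063), Bcl9 (−0.92, adjusted p = 0.0091), Tcf7l1 (−1.13, adjusted p = 0.0094) and Tle1 (−0.62, adjusted p = 0.034, lost without any 1 Vehicle or LPS replicate).

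Of 15 tested target genes 5 fell and 0 rose after LPS (median −0.54), Tnfrsf19 (−1.6, adjusted p = 0.0038), Zfp703 (−0.91, adjusted p = 0.0066), Apcdd1, Ephb3 (−1.06, adjusted p = 0.012, and 0.052 without Vehicle replicate 1) and Ephb2 (−1.84, adjusted p = 0.02, and 0.052 to 0.079 without Vehicle replicate 2 or LPS replicate 1 or 3). Apcdd1 is in this and in the extracellular list. The secretion genes Wls and Porcn were not called (−0.54 and 0.35). Between LPS+TSLP and LPS lungs edgeR called 0 genes of any of these lists in either direction, with 0 to 3 genes per list at an unadjusted p under 0.05. In LPS+TSLP against Vehicle 3 of the transduction list fell and Apc rose (1.18, adjusted p = 0.021), 2 TCF/LEF partners and 3 targets fell, and without Vehicle replicate 1 or 2 the lists had 0 of these calls. Leaving out LPS+TSLP replicate 2 or 3 also ended the calls of the 3 targets.

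Markers of mesenchymal and endothelial cells were in part called lower as well. Of all genes tested, 10.7% were called lower and 14.2% higher after LPS. With TSLP these shares were 5.35% and 8.82%. The 12 fibroblast markers summed to 3950 to 5750 CPM in LPS+TSLP lungs, 2530 to 4260 CPM in LPS lungs and 7200 to 8670 CPM in Vehicle lungs, and 6 of 12 fell in LPS against Vehicle and 2 of 12 in LPS+TSLP against Vehicle. The 7 pericyte markers summed to 423 to 627 CPM in LPS+TSLP lungs, 282 to 427 CPM in LPS lungs and 671 to 803 CPM in Vehicle lungs, with 4 of 7 called lower in LPS against Vehicle and 2 of 7 in LPS+TSLP against Vehicle. The 7 smooth muscle markers summed to 652 to 1230 CPM in LPS+TSLP lungs, 536 to 607 CPM in LPS lungs and 760 to 1430 CPM in Vehicle lungs, so that LPS+TSLP overlapped Vehicle, with 3 of 7 called lower after LPS (1 without Vehicle replicate 2) and 0 of 7 with TSLP. The 7 endothelial markers summed to 2180 to 3790 CPM in LPS+TSLP lungs, 3080 to 3280 CPM in LPS lungs and 4330 to 5750 CPM in Vehicle lungs, with 4 of 7 called lower after LPS (1 without Vehicle replicate 1 or 2) and 2 of 7 with TSLP. Without Vehicle replicate 1 or 2 or LPS+TSLP replicate 2 or 3, the counts against Vehicle with TSLP were 1 for fibroblast and 0 for pericyte and endothelial markers. The 7 neutrophil markers summed to 118 to 1050 CPM in LPS+TSLP lungs, 1530 to 2040 CPM in LPS lungs and 352 to 1130 CPM in Vehicle lungs. Of these, 1 of 7 was called higher after LPS (0 without any 1 Vehicle replicate or LPS replicate 1), and 0 of 7 with TSLP, where the sums overlapped Vehicle. Of the pericyte and of the endothelial markers, 2 of 7 in each list had a positive log2 fold change after LPS, with 0 called higher. Of the 6 alveolar type 2 markers, 2 were called lower after LPS and 1 higher. Without Vehicle replicate 1 or LPS replicate 1 or 2, 0 of the alveolar type 2 markers were called lower. Of the 3 tested adipocyte markers, 2 were called lower after LPS (median log2 −3.77) and 3 with TSLP (median log2 −4.81), with 0 higher. In the fits without 1 library these counts were 1 to 4 in each comparison. The count was 1 without Vehicle replicate 1 or 2 after LPS, and without Vehicle replicate 2 with TSLP. All 52 Wnt genes together summed to 787 to 1210 CPM in LPS+TSLP lungs, 608 to 855 CPM in LPS lungs and 1340 to 1660 CPM in Vehicle lungs. In bulk tissue fewer cells of a type and less RNA per cell cannot be told apart, and the part of these markers in the Wnt values was not tested. Alveolar type 1, airway, macrophage, T cell, B cell and mesothelial marker sums overlapped between LPS and Vehicle lungs, with 0 to 1 marker per list called in each direction, and of the cartilage markers Acan was at 0 in all libraries. All 4 mesothelial markers had negative log2 fold changes after LPS (median −1.99), with 0 called. For 3 of them every LPS library was below every Vehicle library (25.1% of all genes).

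**Figure D4:**
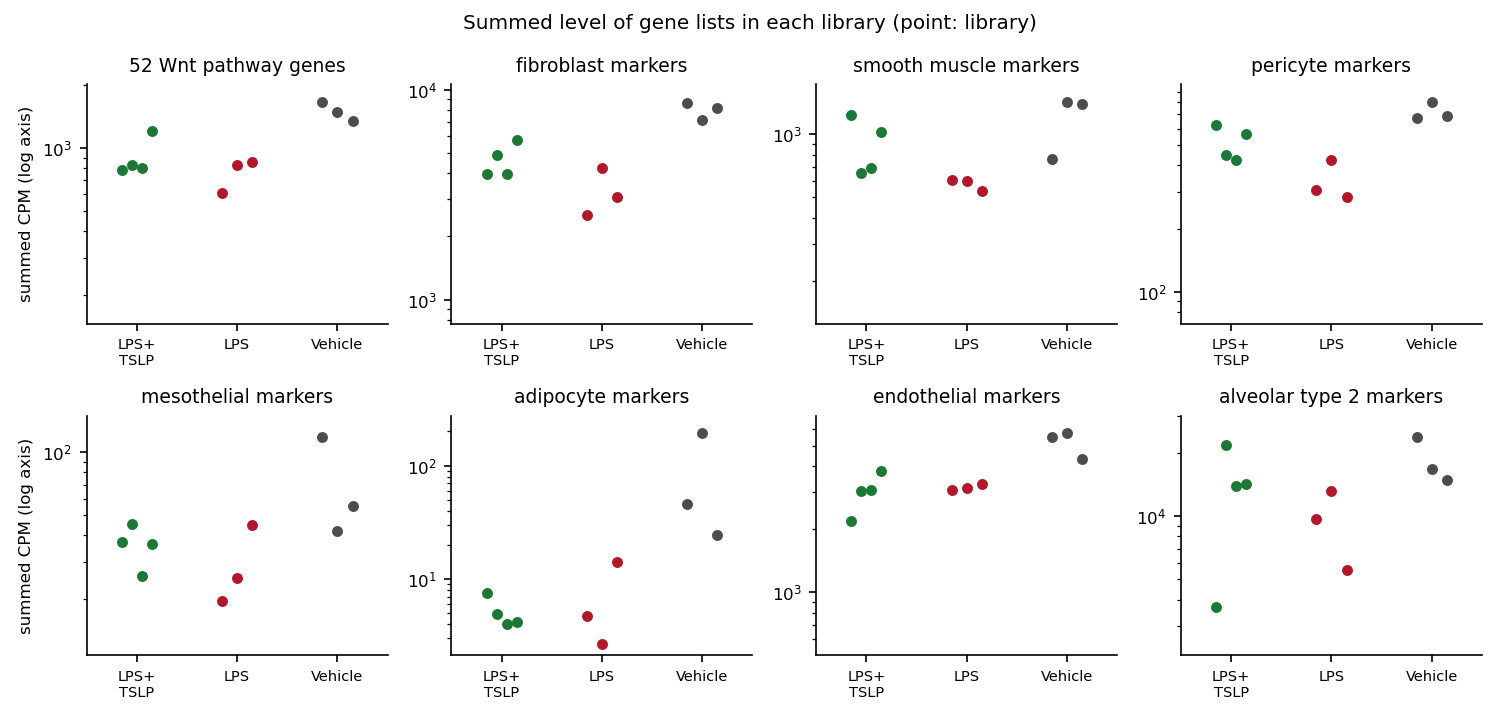
Summed CPM on a log axis in each library, with LPS+TSLP, LPS and Vehicle lungs from left to right, for the 52 Wnt genes and 7 lists of cell type markers. The Wnt sum in LPS lungs, 608 to 855 CPM, lies below all Vehicle libraries, as do the fibroblast, pericyte, endothelial, smooth muscle, adipocyte and alveolar type 2 sums.

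GC content moved with the groups as well. The median log2 ratio to the mean of all libraries, over the 10% of genes richest in GC minus the 10% poorest, was 0.05, −0.34, −0.37 and −0.45 in LPS+TSLP libraries, −0.4, −0.47 and −0.71 in LPS libraries and 1.1, 1 and 0.55 in Vehicle libraries. The tested members had a median GC content of 53.4%, against 49.7% over all genes tested. With this trend removed from each library, 14 of 40 members fell in LPS against Vehicle and 0 rose (9.2% of all genes fell and 10.8% rose), with a median log2 fold change of −0.97, and Wnt3a (−1.72, adjusted p = 0.059), Lrp5 (−1, adjusted p = 0.089) and Dkk3 (−0.45, adjusted p = 0.12) were no longer called. Sfrp2 was then at −4.72 (adjusted p = 0.0087), Fzd7 at −1.47 (adjusted p = 0.0063) and Axin2 at −0.93 (adjusted p = 0.014). In LPS+TSLP against Vehicle 5 fell and 0 rose (3.61% and 4.65% of all genes), Wnt10b, Fzd2, Fzd7, Rnf43 and Sfrp4, while Wnt2 (−0.99, adjusted p = 0.084), Fzd1 (−1.08, adjusted p = 0.055), Fzd8 (−0.56, adjusted p = 0.073) and Dkk3 (−0.51, adjusted p = 0.094) did not pass. Removing the trend also lowered counts of the other pathway lists. In LPS+TSLP against Vehicle 2 polarity genes and 2 extracellular modulators fell then, against 6 and 4 before, 1 TCF/LEF partner against 2, and 0 targets against 3. After LPS 5 genes of the transduction list fell against 7, 3 TCF/LEF partners against 4 and 7 polarity genes against 8, while Wls was called lower (−1.18, adjusted p = 0.011, and −1.13, adjusted p = 0.016 with TSLP) and the target Myc higher (1.23, adjusted p = 0.036).

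**Figure D5:**
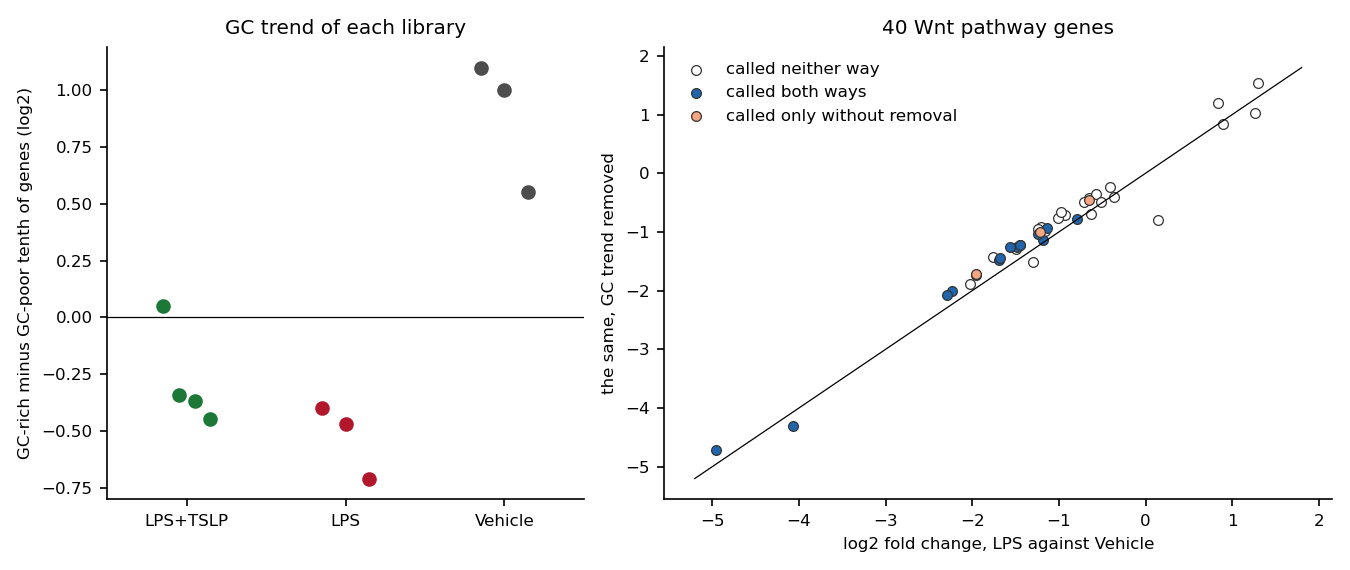
Left, the log2 difference between the 10% of genes richest and the 10% poorest in GC in each LPS+TSLP, LPS and Vehicle library, where all Vehicle libraries lie between 0.55 and 1.1 and all LPS libraries between −0.71 and −0.4. Right, the log2 fold change of the 40 Wnt genes in LPS against Vehicle (horizontal) against the same with the trend removed (vertical) and the line of equality, with 14 genes called both ways and 3 called only without the removal.

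In the annotation, 4 pairs of members lie next to each other. Wnt6 and Wnt10a lie 6193 bases apart on chromosome 1, Wnt3a and Wnt9a 16175 bases apart on chromosome 11, Wnt9b and Wnt3 24328 bases apart on chromosome 11, and Wnt10b and Wnt1 11706 bases apart on chromosome 15. Wnt10b fell after LPS, while Wnt1 had 0, 1 and 2 reads over the LPS+TSLP, LPS and Vehicle libraries. Wnt3a fell, and Wnt9a was at −0.57 (adjusted p = 0.32). A total of 9 members share exon bases with a gene on the opposite strand, for Sfrp2 16.1% with Gm26771, for Fzd5 17.8%, for Rspo3 13.1% and for Notum 38.1%. Whether reads were counted by strand is not given in the sources used here, so reads of these 4 and their partners cannot be told apart over those bases.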

How the data were processed

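Whole lung RNA of 10 libraries was sequenced. Per the submitters' processing notes, CASAVA, HISAT2 and HTSeq 0.6.0 were used with GRCm38 (mm10), and the authors deposited raw read counts per gene with gene symbols, 1 column per library. The annotation release and the strand setting are not given in the sources used here. Of the symbols, 27 had become calendar dates and were set back by gene identifier. The reference annotation holds 54495 (99.93%) of the identifiers.

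Counts were filtered with filterByExpr, scaled by TMM and tested with edgeR 4.0.16 (R 4.3.3), in 1 robust quasi-likelihood fit of all 3 groups with 7 residual degrees of freedom. P-values were adjusted by Benjamini-Hochberg over 17139 genes in each of 3 comparisons, with a threshold of 0.05. Log2 fold changes are those of the edgeR fit, and a prior count of 2 was used for log2 CPM in the GC and pairing checks. The alternatives were DESeq2 1.42.0 (size factors and the Wald test), limma-voom (limma 3.58.1), other filters, a fit of 2 groups alone, a replicate block, removal of a loess trend on GC content, and leaving out libraries. Libraries were not treated as paired in the main fit. Deviations from the group means correlated at −0.34 to 0.4 between libraries of equal number, and 3 of 9 pairs were over 0.1. The pairs of LPS and LPS+TSLP replicates 1, 2 and 3 were at 0.32, 0.4 and −0.1. Pairs of unequal number were not compared, so this check cannot decide whether the numbers pair the libraries. No 2 libraries of 1 group agreed within sampling noise. Scripts were tested on simulated data.

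Genes named with values were Sfrp2, Wnt2, Axin2, every member called in any comparison, the 10 members with the highest level per kb in Vehicle lungs, and at most 4 called genes per other list by adjusted p. Other members named, and Ctnnb1, Apc and Ephb2, were chosen after their values were seen. Members and lists were chosen with earlier results of these data known. Library totals of 16175172 to 18374461 counts leave genes under about 1 CPM with few reads.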

Additional observations from a re-analysis of the deposited data

Results flagged for a closer look

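In the 4 LPS+TSLP libraries 5 of the 40 tested Wnt genes had 1 library far from the other 3. The nominal rate of this rule is about 1 in 20 such groups, for genes that vary independently. These genes share the same 4 libraries, and the rule was applied to the Wnt genes only. The share of all genes flagged is not given here, so the count cannot show an excess among the Wnt genes. LPS+TSLP replicate 1 stood high for 3 of the 5 flagged genes. Wnt7b was at 19.4 CPM there and at 3.05 to 3.66 CPM in the other 3 libraries, Wnt11 at 21.6 CPM against 5.64 to 8.05 CPM, and Wif1 at 4.61 CPM against 0.978 to 1.1 CPM. The same library had the highest mitochondrial share (13.1%) and the lowest sum of alveolar type 2 markers (3700 CPM), and their part in these values was not tested. Dkk2 was at 1.34 CPM in LPS+TSLP replicate 4 and at 0.384 to 0.491 CPM in the others. Axin2 was low, at 21.9 CPM, in LPS+TSLP replicate 3 and at 30.8 to 32.4 CPM in the others.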

How the results depend on the processing

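Of the members called in LPS against Vehicle, 8 of 17 held in each of the 10 fits without 1 library, and of those called in LPS+TSLP against Vehicle, 1 of 9 (Fzd7) did. In LPS against Vehicle 8 to 25 members were lower in these fits (8 without Vehicle replicate 2, 10 without Vehicle replicate 1 or LPS replicate 1, 25 without LPS+TSLP replicate 1) and 0 to 1 higher (Rspo3, without Vehicle replicate 3). The filter and the spread were set anew in each of these fits, so calls of any gene can change with them. In LPS+TSLP against Vehicle 1 to 13 were lower (1 without Vehicle replicate 2, 2 without Vehicle replicate 1, 3 and 4 without LPS+TSLP replicates 3 and 2, 13 without LPS+TSLP replicate 1), with 15 by the DESeq2 Wald test and 5 with the GC trend removed. Of all genes called higher, LPS+TSLP against Vehicle, there were 1511, with 2296 by the Wald test, 797 with the GC trend removed, 2333 without both replicate 1 libraries and as few as 404 without 1 library. Of all genes called lower, LPS+TSLP against Vehicle, there were 917, with 1629 by the Wald test, 1592 with the replicate block, 1509 without both replicate 1 libraries and 81 to 1478 without 1 library. Of all genes called higher, LPS against Vehicle (2437), and of all genes called lower, LPS against Vehicle (1836), as few as 1012 and 640 were called without 1 library. Among the 20 members given in full, changes in sign all concerned LPS+TSLP against LPS, where none was called. Among the others, none of them called, Fzd3 changed sign with the GC trend removed in both comparisons with Vehicle (−0.8 after LPS and −0.15 with TSLP, against 0.14 and 0.65), and Wnt7b (−1.33 to 0.36) and Dkk2 (−0.11 to 1.09) did so in LPS+TSLP against Vehicle without 1 library, Wnt7b also with the GC trend removed (0.02) and Dkk2 also with the replicate block. For LPS+TSLP against LPS, with replicate 1 of both groups left out, Wnt5a was at −0.05 and Wnt10b at 0.3. In that same comparison the replicate block gave −0.1 for Fzd1 and −0.18 for Rnf43, and with the GC trend removed as well −0.15 and −0.25. Removing the GC trend alone gave 0.01 there for Fzd4. Without 1 library, again in LPS+TSLP against LPS, Wnt5a ranged over −0.09 to 0.31, Wnt10b −0.46 to 0.16, Fzd1 −0.11 to 0.38, Fzd4 −0.2 to 0.13, Rnf43 −0.14 to 0.29, Sfrp1 −0.27 to 0.07 and Dkk3 −0.18 to 0.06. The replicate block called 19 members lower in LPS against Vehicle, 13 in LPS+TSLP against Vehicle and 0 in LPS+TSLP against LPS. By their labels the libraries of a block share only a number. Wnt2 lost its call with TSLP by limma-voom (adjusted p = 0.06) and in the fit of 2 groups alone (0.057). Without a filter on low counts Wnt3a, Wnt5a and Dkk3 lost theirs after LPS (0.091, 0.051 and 0.083) and Fzd8 and Dkk3 theirs with TSLP (0.055 and 0.056). The causes were not tested. Few reads limit Sfrp2 and Sfrp4 in treated lungs, which held 10 and 14 reads over the LPS libraries.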
